A study of Mus musculus with 8 samples.

Results

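The FOXO transcription factors and a set of genes they are known to control were followed through mouse salivary gland tumours induced by AKT, with and without rapamycin. The set was chosen by gene name, with earlier results of these data known. It holds 10 genes, of which 8 were among the 16375 genes that could be tested. They are the factors Foxo1 and Foxo3 (named Foxo3a on the arrays) and the targets Sesn1, Pdk4, Klf2, Ccng2, Bcl6, Gadd45a, Txnip and Insr. The arrays carry 16 probes under these names. Of these, 12 probes of 8 genes passed the filter on signal, and those 8 genes were well above background on all 8 arrays, so none entered through a single group. Foxo3 and Insr did not pass and were not tested.

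FOXO proteins sit at the end of the insulin and PI3K pathway. AKT phosphorylates them, 14-3-3 proteins bind the phosphorylated form, and the factors are held in the cytoplasm, whereas with low AKT activity they enter the nucleus and switch on genes of cell cycle arrest, stress defence and fasting metabolism. Rapamycin inhibits the mTOR complex that lies downstream of AKT. In skeletal muscle FOXO factors drive atrophy genes, and they are also active in fat, endothelium and lymphocytes, so tissue of these kinds in a sample brings FOXO target transcripts of its own.

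RNA of 8 samples was measured on Agilent 1-colour arrays that cover the mouse genome. The groups were untreated AKT-induced tumour (n = 2), tumours of this kind after 3 days (n = 1) and 14 days (n = 2) of rapamycin, untreated normal parotid (n = 2) and an untreated normal submandibular gland (n = 1). The labels give no strain, age, sex, dose, promoter or gland of origin for the tumours, and they do not say which tissue lay around the sampled tumour. Nor do they state that samples of 1 group are from different animals, and the p-values therefore reflect the spread among these samples alone. Between the day 14 samples that spread may be technical. The untreated tumours differed from each other in sex-linked transcripts, as did the parotid samples, with values given below. The spread of the single day 3 and submandibular samples was taken from the replicated groups.

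Levels are log2 signals relative to the 75th percentile of each array, so a level of 0 is the signal at that percentile and a difference of 1 is 2-fold. That percentile was at 966 and 972 units in untreated tumour, 730 on the day 3 array, 177 and 236 on the day 14 arrays, 384 and 145 in parotid and 277 in submandibular gland. Every difference below rests on this scaling. Unscaled, Foxo1 had 1601 and 1785 units in untreated tumour, 1760 on the day 3 array, 1212 and 1506 on the day 14 arrays, 3127 and 962 in parotid and 1280 in submandibular gland, so day 14 lay below untreated tumour before scaling. Salivary acinar markers were lower in the untreated tumours than in parotid for 9 of 9 genes, and proliferation markers were higher for 8 of 8. Xist and the Y-linked Ddx3y stood at −5.45 and 0.48 in untreated tumour replicate 1 and at 4.19 and −7.62 in replicate 2. In parotid they stood at 4.46 and −6.04 in replicate 1 and at −5.17 and 1.11 in replicate 2. Each of these groups thus pairs a male with a female pattern, and the spread within it includes that difference. Both day 14 arrays held Y-linked signal together with Xist at −2.10 and −2.40. The arrays lay on 2 slides, with both untreated tumours, 1 parotid and 1 day 14 array on slide 1 and the other arrays on slide 2.

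FOXO proteins bind the core GTAAACA on either strand. Printed here are the promoters of the factor Foxo1, of Sesn1 and Pdk4, the targets with the largest differences at day 14 against untreated tumour, and of Txnip and Trim63, which were chosen because they hold a match. The sequences are RefSeq promoters on GRCm38.p6, covering the 250 bases before the start, written 5′ to 3′ on the strand of the gene. Capitals mark a match to GTAAACA or to its reverse complement TGTTTAC, and the variant GTAAATA was searched in the same way.
Foxo1 promoter, chr3:52268087-52268336, plus strand: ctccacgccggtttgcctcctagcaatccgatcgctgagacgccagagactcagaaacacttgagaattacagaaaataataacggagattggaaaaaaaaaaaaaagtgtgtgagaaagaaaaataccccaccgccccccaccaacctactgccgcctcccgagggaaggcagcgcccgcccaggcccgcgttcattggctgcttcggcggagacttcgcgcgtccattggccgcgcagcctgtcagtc
Sesn1 promoter, chr10:41810324-41810573, plus strand: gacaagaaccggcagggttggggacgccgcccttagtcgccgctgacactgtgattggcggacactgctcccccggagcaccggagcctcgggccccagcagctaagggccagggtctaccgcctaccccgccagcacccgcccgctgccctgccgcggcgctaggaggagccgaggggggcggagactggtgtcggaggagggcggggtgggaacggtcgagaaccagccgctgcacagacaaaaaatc
Pdk4 promoter, chr6:5496279-5496528, minus strand: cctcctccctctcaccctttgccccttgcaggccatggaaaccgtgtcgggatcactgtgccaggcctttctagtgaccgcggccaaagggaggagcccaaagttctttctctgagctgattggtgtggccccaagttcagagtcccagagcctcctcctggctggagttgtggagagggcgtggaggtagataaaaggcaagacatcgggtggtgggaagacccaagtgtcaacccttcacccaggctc
Txnip promoter, chr3:96557707-96557956, plus strand: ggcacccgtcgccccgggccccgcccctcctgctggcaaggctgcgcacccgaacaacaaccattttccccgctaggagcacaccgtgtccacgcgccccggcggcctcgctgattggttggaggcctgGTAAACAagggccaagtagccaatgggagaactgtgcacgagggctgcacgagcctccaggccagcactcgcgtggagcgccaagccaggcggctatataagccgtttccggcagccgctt
Trim63 promoter, chr4:134314870-134315119, plus strand: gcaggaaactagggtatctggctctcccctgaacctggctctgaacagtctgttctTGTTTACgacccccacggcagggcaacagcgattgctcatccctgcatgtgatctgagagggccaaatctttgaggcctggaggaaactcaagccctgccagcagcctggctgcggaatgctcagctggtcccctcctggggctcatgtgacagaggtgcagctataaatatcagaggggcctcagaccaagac
The 9 members found in the table have 11 promoters, of which 1 holds GTAAACA, that of Txnip, 121 bases before its start, and 0 hold GTAAATA. Among all 32851 promoters of that length, 3.17% hold GTAAACA and 2.73% hold GTAAATA. Among 26 promoters of 22 other FOXO targets, 3 hold GTAAACA. They are those of the muscle atrophy ligase Trim63, on the reverse strand 194 bases before the start, of the cell death gene Bcl2l11, 227 bases before, and 1 of the promoters of the cell death gene Bbc3, on the reverse strand 167 bases before. At day 14 Trim63 was higher than in untreated tumour, and Bcl2l11 and Bbc3 were lower. A match describes letters in this window and says nothing of binding in these tissues.

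Foxo1 was low in the untreated tumours, and on its brighter probe it overlapped with the normal parotid gland at day 14. It stood at 0.73 and 0.88 in untreated tumour, 1.27 at day 3, 2.77 and 2.68 at day 14, 3.03 and 2.73 in parotid and 2.21 in submandibular gland. On this probe the untreated tumours lay below every other array, and the day 14 and parotid values overlapped. Foxo1 was 4.21-fold lower in untreated tumour than in parotid (log2 difference −2.07 ± 0.21 (SE), adjusted p = 0.000883) and 3.79-fold higher at day 14 than in untreated tumour (1.92 ± 0.21, adjusted p = 0.00101). Against parotid, day 14 differed by −0.15 ± 0.21 (adjusted p = 0.675). The brighter probe lies at chr3:52434190-52434249 and a second at chr3:52437296-52437355 on the mm8 assembly, both on the plus strand, and no annotation of that build was used here. The second probe moved the same way, by −1.81 ± 0.24 in untreated tumour against parotid and by 1.38 ± 0.24 at day 14 against untreated tumour (adjusted p = 0.00234 and 0.00489 over 24298 probes). At day 14 it stood at 2.31 and 1.98, without overlap below parotid at 2.73 and 2.41. That difference was −0.43 ± 0.24 and did not pass (limma, adjusted p = 0.276). At day 3 the second probe stood at 0.80, between the untreated tumours at 0.63 and 0.89, and differed from them by 0.04 ± 0.29. The other factor on the arrays, Foxo3, was measured by a pair of probes that were well above background on 0 and 1 of the 8 arrays, with processed signals of 3.28 to 30.9 units on all arrays, so it has no usable level.

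**Figure D1:**
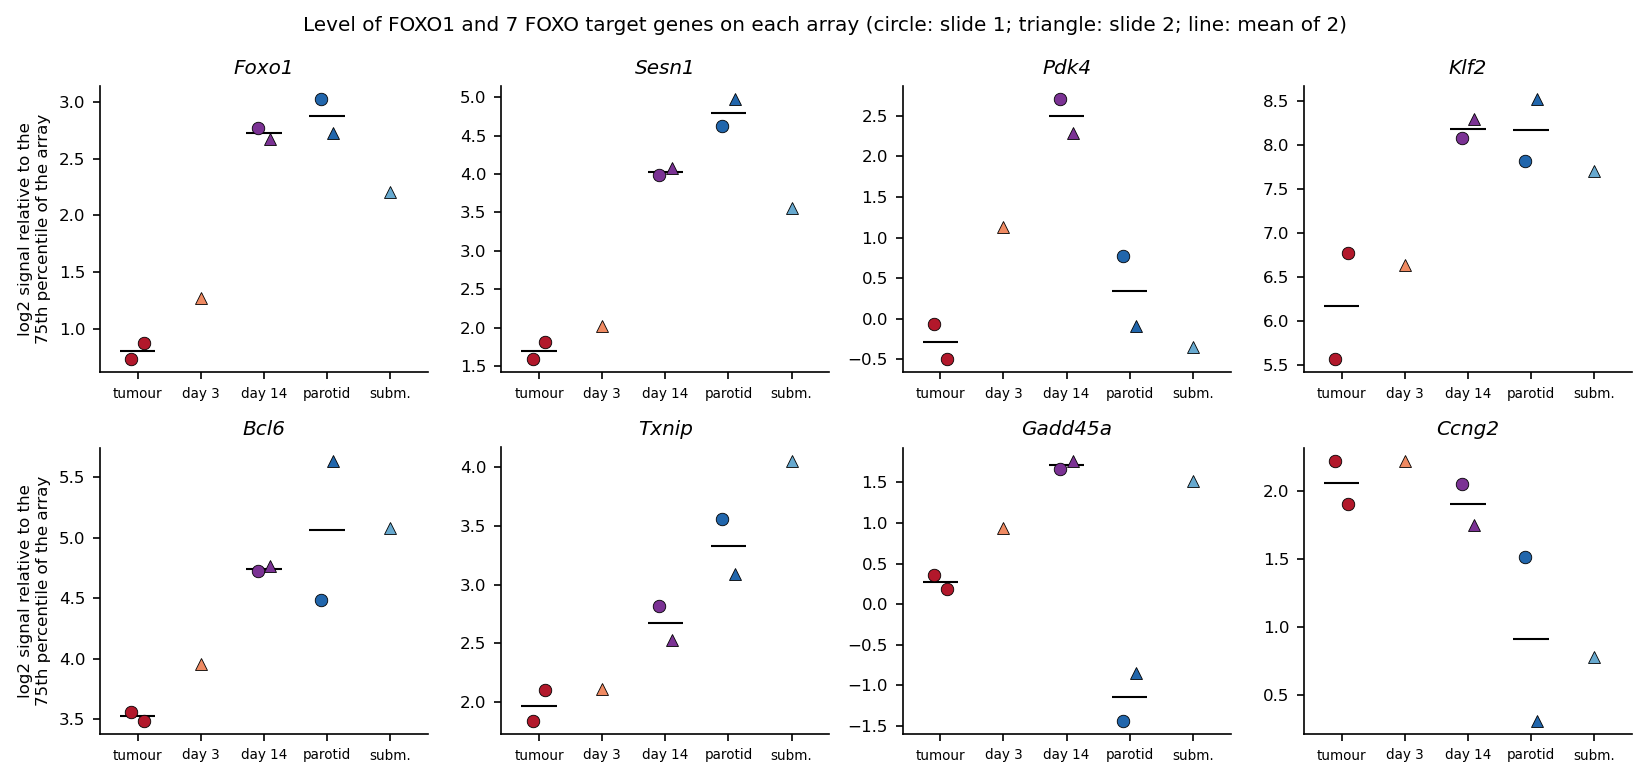
Level of the 8 measured members on each of the 8 arrays, as log2 signal relative to the 75th percentile of the array, in untreated tumour, at rapamycin day 3 and day 14, in parotid and in submandibular gland (subm.). Circles are arrays of slide 1, triangles arrays of slide 2, and lines are means of 2 arrays. Foxo1 and Sesn1 are low in the untreated tumours and at day 3 and high at day 14 and in the normal glands, whereas Pdk4 is highest at day 14 and Gadd45a is lowest in parotid.

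Before the single targets, the counts by comparison set the scale. In untreated tumour against parotid, 39.1% of all 16375 genes passed the test, 20.4% lower and 18.7% higher. Of the 8 members, 5 were lower (Foxo1, Sesn1, Klf2, Bcl6, Txnip) and 1 higher (Gadd45a), and their median difference was −1.45, against 0.02 for all genes. At day 14 against untreated tumour, 47.7% of all genes passed, 24.3% higher and 23.4% lower. There 6 members were higher (Foxo1, Sesn1, Pdk4, Klf2, Bcl6, Gadd45a) and 0 lower, with a median of 1.68 against 0.02. These 2 comparisons share the untreated tumour arrays. Without untreated tumour replicate 1 the first count was 2, and without day 14 replicate 1 or 2 the other was 3. The shares over all genes without these arrays are not given here. Within slide 1 the called members kept their direction. Against parotid, untreated tumour differed there by −2.22 for Foxo1, −2.92 for Sesn1, −0.96 for Bcl6, −1.60 for Txnip and 1.71 for Gadd45a. Day 14 differed there from untreated tumour by 1.97 for Foxo1, 2.29 for Sesn1, 2.99 for Pdk4, 1.91 for Klf2, 1.20 for Bcl6 and 1.39 for Gadd45a.

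The stress-response targets were the sestrin Sesn1, the thioredoxin inhibitor Txnip and the DNA damage gene Gadd45a. Sesn1 encodes a protein that restrains mTORC1 when amino acids are short and protects against oxidants. It stood at 1.59 and 1.81 in untreated tumour, 2.01 at day 3, 3.98 and 4.07 at day 14, 4.62 and 4.97 in parotid and 3.56 in submandibular gland. The untreated tumours were again the lowest arrays, and day 14 lay between submandibular gland and parotid on the brighter probe. The dimmer probe had day 14 at −1.84 and −2.07, below submandibular gland at −1.01 and parotid at −0.47 and −0.61. Sesn1 was 8.58-fold lower in untreated tumour than in parotid (−3.10 ± 0.21, adjusted p = 0.000299) and 5.04-fold higher at day 14 than in untreated tumour (2.33 ± 0.21, adjusted p = 0.000621). At day 14 it was still 0.77 ± 0.21 below parotid, which did not pass over all genes (adjusted p = 0.0669) but did without parotid replicate 1 (−0.95, adjusted p = 0.0116) and for the dimmer probe (−1.41 ± 0.30, adjusted p = 0.0326). That probe showed the same fall in untreated tumour against parotid (−2.61 ± 0.30) and a smaller rise at day 14 (1.20 ± 0.30). Another Sesn1 probe was well above background on 1 array and was not tested.

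Txnip, which binds thioredoxin and limits glucose uptake, was lower in the untreated tumours. It stood at 1.84 and 2.10 in untreated tumour, 2.11 at day 3, 2.81 and 2.52 at day 14, 3.56 and 3.09 in parotid and 4.06 in submandibular gland. The untreated tumours were below all other arrays, and day 14 lay between them and the normal glands without overlap. It was 2.57-fold lower in untreated tumour than in parotid (−1.36 ± 0.25, adjusted p = 0.00746), a call lost without untreated tumour replicate 1 (−1.23, adjusted p = 0.0628). Day 14 differed from untreated tumour by 0.70 ± 0.25, just outside the threshold (adjusted p = 0.0560), and passed in 7 of 18 alternative settings. The lesser probe, at −2.02 ± 0.61 in untreated tumour against parotid and 1.13 ± 0.61 at day 14 against untreated tumour, pointed the same way.

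Gadd45a, an inducer of cell cycle arrest after DNA damage, did not follow the others against parotid. It stood at 0.36 and 0.19 in untreated tumour, 0.94 at day 3, 1.66 and 1.77 at day 14, −1.44 and −0.84 in parotid and 1.52 in submandibular gland. Parotid was the lowest group, and day 14 the highest. Gadd45a was 2.67-fold higher in untreated tumour than in parotid (1.42 ± 0.28, adjusted p = 0.00977) and 2.36-fold lower than in submandibular gland (−1.24 ± 0.34, adjusted p = 0.0373), so the normal gland chosen sets its direction. Submandibular gland was 6.31-fold higher than parotid (2.66 ± 0.34, adjusted p = 0.0202), where 2.34% of all genes passed, 1.36% higher. That call was lost when any 1 array of untreated tumour or day 14 was left out of the shared fit (adjusted p of 0.0526 to 0.115) and with slide as a fixed block (2.48, adjusted p = 0.0589). At day 14 it was 2.71-fold higher than in untreated tumour (1.44 ± 0.28, adjusted p = 0.00745). The parotid call was lost without untreated tumour replicate 1 (1.33, adjusted p = 0.0721) or 2 (1.50, adjusted p = 0.0534), and the day 14 call without day 14 replicate 1 (1.49, adjusted p = 0.0526), day 14 replicate 2 (1.39, adjusted p = 0.0589) or untreated tumour replicate 2 (1.36, adjusted p = 0.0579).

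The metabolic target Pdk4, a kinase that shuts off pyruvate dehydrogenase during fasting, moved at day 14 without a clear deficit in the tumour. It stood at −0.07 and −0.50 in untreated tumour, 1.13 at day 3, 2.70 and 2.28 at day 14, 0.77 and −0.09 in parotid and −0.35 in submandibular gland. The day 14 arrays were the highest and day 3 came next, while the untreated tumours overlapped with the normal glands. Pdk4 was 6.85-fold higher at day 14 than in untreated tumour (2.78 ± 0.36, adjusted p = 0.00191) and 4.45-fold higher than in parotid (2.15 ± 0.36, adjusted p = 0.0214). In untreated tumour it differed from parotid by −0.62 ± 0.36 (adjusted p = 0.214), which became −1.06 without parotid replicate 2 (adjusted p = 0.0244). The call against parotid was lost without day 14 replicate 1 (1.94, adjusted p = 0.189) or 2 (2.36, adjusted p = 0.143). Insr, the insulin receptor that FOXO1 raises, was well above background on 0 of 8 arrays with its single named probe. A probe that the files call D630014A15Rik, a RefSeq synonym of Insr, was well above background on all 8 arrays. It was chosen after its values were seen, and it differed by −0.99 ± 0.30 in untreated tumour against parotid (adjusted p = 0.0419) and by 0.63 ± 0.30 at day 14 against untreated tumour (adjusted p = 0.124).

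Of the targets that control transcription and division, Klf2, a quiescence factor of endothelium and T cells, was lower in the tumours. It stood at 5.56 and 6.78 in untreated tumour, 6.64 at day 3, 8.08 and 8.30 at day 14, 7.82 and 8.53 in parotid and 7.71 in submandibular gland. On this brighter probe the untreated tumour arrays were far apart, and day 3 lay between them. Klf2 was 4.02-fold lower in untreated tumour than in parotid (−2.01 ± 0.47, adjusted p = 0.0183) and 4.05-fold higher at day 14 than in untreated tumour (2.02 ± 0.47, adjusted p = 0.0145). Its probe is among the brightest, at rank 93 of 16375 by mean level, and the 200 brightest genes had a median difference of −0.90 in untreated tumour against parotid and 0.56 at day 14 against untreated tumour. With quantile normalization the tumour difference was −1.22 (adjusted p = 0.0631), and with the deposited values it was −1.11 (adjusted p = 0.0970) and the day 14 difference 1.16 (adjusted p = 0.0758). The parotid call was also lost with slide as a fixed block (−1.78, adjusted p = 0.0534) and within slide 1 (−1.65, adjusted p = 0.0661). Without untreated tumour replicate 1 both calls were lost (−1.40, adjusted p = 0.107, and 1.41, adjusted p = 0.0847), as they were without day 14 replicate 1 (adjusted p = 0.0527 and 0.0784) or 2 (adjusted p = 0.0526 and 0.0935). A second, dimmer Klf2 probe differed by −3.03 ± 0.67 in untreated tumour against parotid (adjusted p = 0.0154) and by 3.13 ± 0.67 at day 14 against untreated tumour (adjusted p = 0.0104). On it the untreated tumours were close, at 0.48 and 0.31, with day 3 above both at 1.06. The parotid arrays were far apart there, at 4.54 and 2.32.

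Bcl6, a repressor of transcription best known in germinal centre B cells, showed a smaller change of the same direction. It stood at 3.56 and 3.49 in untreated tumour, 3.96 at day 3, 4.72 and 4.77 at day 14, 4.49 and 5.64 in parotid and 5.08 in submandibular gland. Both untreated tumours were below the other arrays, and the parotid arrays were far apart. Bcl6 was 2.90-fold lower in untreated tumour than in parotid (−1.54 ± 0.37, adjusted p = 0.0209) and 2.33-fold higher at day 14 than in untreated tumour (1.22 ± 0.37, adjusted p = 0.0365). Both calls were lost when any 1 array of tumour or day 14 was left out (adjusted p of 0.0567 to 0.0995 for the first and 0.119 to 0.151 for the second). With slide as a fixed block the day 14 difference was 0.92 (adjusted p = 0.0821).

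Ccng2, an unusual cyclin that blocks the cell cycle, did not follow the pattern. It stood at 2.22 and 1.90 in untreated tumour, 2.22 at day 3, 2.05 and 1.75 at day 14, 1.51 and 0.31 in parotid and 0.78 in submandibular gland. The tumours, treated or not, were above all normal glands. The difference of 1.15 ± 0.41 between untreated tumour and parotid did not pass (adjusted p = 0.0661), though it did without parotid replicate 1 (1.75, adjusted p = 0.00148), and day 14 differed from untreated tumour by −0.16 ± 0.41 (adjusted p = 0.766).

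**Figure D2:**
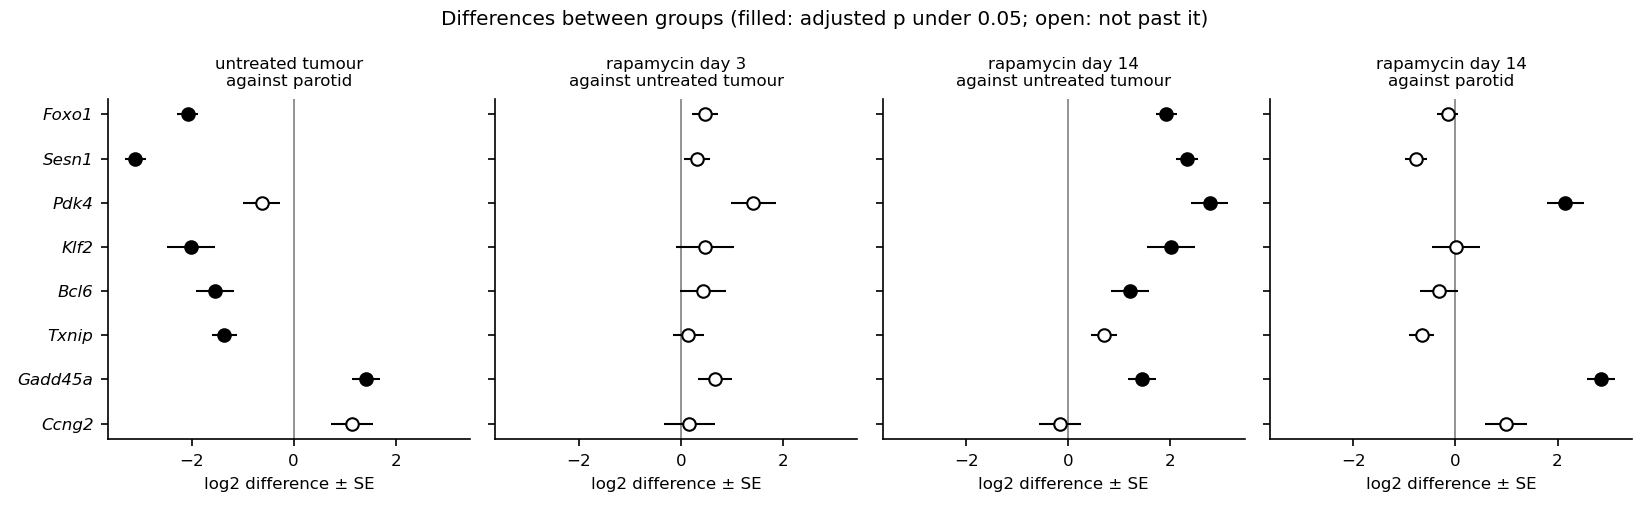
Log2 difference ± SE for the 8 measured members in untreated tumour against parotid, day 3 against untreated tumour, day 14 against untreated tumour and day 14 against parotid. Filled points passed at an adjusted p under 0.05. Of the 8 members 6 are filled in the first panel, 0 at day 3, 6 at day 14 and 2, Pdk4 and Gadd45a, against parotid.

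Against submandibular gland, the single array of the other normal gland, 29.5% of all genes passed, 15.2% lower and 14.3% higher in untreated tumour. Of the members, 5 were lower and 0 higher. Txnip was 4.26-fold lower (−2.09 ± 0.30, adjusted p = 0.00447), Sesn1 3.64-fold lower (−1.86 ± 0.26, adjusted p = 0.00405) and Foxo1 2.65-fold lower (−1.41 ± 0.25, adjusted p = 0.00952), besides Bcl6 (−1.56 ± 0.46, adjusted p = 0.0466) and Gadd45a. Sesn1 and Txnip passed in each of the 17 alternative settings, Foxo1 in 16 (without untreated tumour replicate 1 it was −1.33, adjusted p = 0.0647), and Bcl6 and Gadd45a in 9. The calls of Bcl6 and Gadd45a were lost when any 1 array of untreated tumour or day 14 was left out, with adjusted p-values of 0.0882 to 0.158. Both untreated tumours lay on slide 1 and the submandibular array on slide 2, and with slide as a fixed block Bcl6 was at −0.96 (adjusted p = 0.241) and Gadd45a at −0.89 (adjusted p = 0.197). Pdk4 (0.06 ± 0.44), Klf2 (−1.54 ± 0.57) and Ccng2 (1.28 ± 0.50) did not pass.

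At day 3, 0 of 8 members passed, and 0.00611% of all genes did (1 gene of 16375, limma, with 1438 at an unadjusted p under 0.05). The differences of all 8 members were positive, from 0.14 ± 0.30 for Txnip to 1.42 ± 0.44 for Pdk4, with a median of 0.45, against 0.06 for all genes. The dimmer Txnip probe was at −0.06 ± 0.75. Bcl6 was at −0.17 with slide as a fixed block, and Klf2 at −0.14 without untreated tumour replicate 1. Foxo1 differed by 0.47 ± 0.25 (adjusted p = 0.683) and Sesn1 by 0.32 ± 0.26 (adjusted p = 0.833). Pdk4 had the smallest adjusted p of the 8 members (0.434) and was the sole member whose unadjusted limma p was under 0.05. The day 3 values rest on 1 array, which had 791 non-uniform spots, against 5 to 51 on the others.

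Between the treatment times the difference itself could be tested, with 22.7% of all genes passing at day 14 against day 3, 10.9% higher. Foxo1 (1.45 ± 0.25, adjusted p = 0.0121) and Sesn1 (2.01 ± 0.26, adjusted p = 0.00494) were higher at day 14 and the other 6 members did not pass. Pdk4 differed by 1.36 ± 0.44 (adjusted p = 0.0727). The Foxo1 call was lost without day 14 replicate 1 (1.41, adjusted p = 0.0835) or 2 (1.50, adjusted p = 0.0727), and the Sesn1 call without day 14 replicate 2 (1.97, adjusted p = 0.0506). With parotid replicate 1 or 2 left out of the shared fit, the differences between day 14 and day 3 stayed the same (1.36 for Pdk4, 1.55 for Klf2). The shared spread, on which the calls rest, changed. Against parotid, where 11.3% of all genes passed, 6.24% higher and 5.07% lower, day 14 was higher for Pdk4 and Gadd45a (2.86 ± 0.28, adjusted p = 0.00634), and 0 members were lower. The Gadd45a call there was lost without day 14 replicate 1 (2.91, adjusted p = 0.119) or 2 (2.80, adjusted p = 0.121). With parotid replicate 1 left out, the differences went both ways, at 1.59 for Ccng2, −0.89 for Bcl6 and −0.95 for Sesn1. Without parotid replicate 2 Bcl6 was at 0.26.

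**Figure D3:**
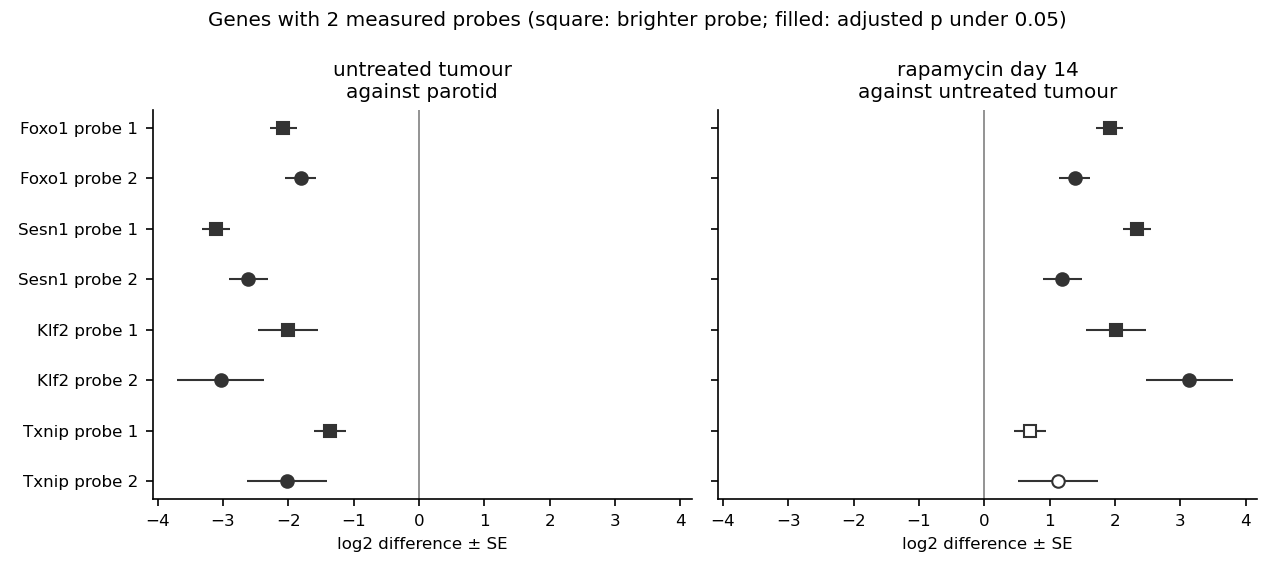
Log2 difference ± SE of each measured probe of Foxo1, Sesn1, Klf2 and Txnip, the members with more than 1 probe, in untreated tumour against parotid and at day 14 against untreated tumour. Squares are the brighter probe that stands for the gene, circles the dimmer one, and filled symbols passed at an adjusted p under 0.05. All 8 probes are negative on the left and positive on the right, and both Txnip probes are open on the right.

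Markers of other tissues also differed between the groups. Skeletal muscle markers (14 genes) summed to 2.10 and 2.36 times the 75th percentile in untreated tumour, 3.09 at day 3 and 2206 and 2283 at day 14. Parotid held 3.00 in replicate 1 and 226 in replicate 2, and submandibular gland 2.58. All 14 were well above background on both day 14 arrays, against 7 on each untreated tumour, where the muscle creatine kinase Ckm and the fast myosins Myh1, Myh2 and Myh4 were not. Muscle markers rose for 13 of 14 genes at day 14, and Ckm was at least 6552-fold higher, a bound set by its own signal in the untreated tumours, which was not well above background. Adipocyte markers (10 genes) summed to 32.4 and 21.2 in untreated tumour, 110 at day 3 and 445 and 404 at day 14, with 54.7 and 229 in parotid and 33.4 in submandibular gland. They rose at day 14 for 9 of 9 tested. Fabp4 and Cidea carried most of the sum in untreated tumour, and single fat markers differed far more than the sum. At day 3 Adipoq was 275-fold, Cfd 392-fold and Ucp1 41.5-fold above untreated tumour (Adipoq and Cfd were well above background on 1 of 2 untreated tumours), and the median log2 difference of the 9 tested was 6.98, though 0 of 9 passed over all genes (limma, 8 at an unadjusted p under 0.05). Ucp1, the brown fat protein, stood at −4.52 and −4.96 in untreated tumour, 0.63 at day 3, 3.98 and 4.42 at day 14, −6.18 and −5.22 in parotid and −5.19 in submandibular gland. Fewer cells of a type and less RNA per cell cannot be told apart in such tissue samples.

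The members fall into different relations with these markers. Pdk4, which muscle and brown fat express strongly, was highest at day 14, where muscle and fat markers were highest. At day 3 it was above both untreated tumours with the muscle sum at 3.09 and the fat markers higher as given above. In parotid Pdk4 was lower in replicate 2 than in replicate 1. Replicate 2 had the higher muscle sum (226 against 3.00) and fat sum (229 against 54.7), and each replicate had 8 fat markers well above background. In parotid replicate 1, with muscle markers at 3.00, Foxo1 stood at 3.03 and Sesn1 at 4.62, against 2.73 and 4.97 in replicate 2, with 226. The submandibular array, with 2.58, was above both untreated tumours for Foxo1, Sesn1, Klf2, Bcl6, Gadd45a and Txnip. B and plasma cell markers summed to 72.0 and 78.2 at day 14, against 0.29 and 0.20 in the untreated tumours, and T cell markers to 17.5 and 21.7, against 8.91 and 3.17. Parotid replicate 1 had the highest of both sums, 102.7 for B and plasma cells and 98.6 for T cells, against 56.8 and 7.35 in replicate 2. Submandibular gland had 46.5 and 9.50. Thy1 carried most of the T cell sum in the untreated tumours, and 5 of 7 tested T cell markers rose at day 14, with a median log2 difference of 5.75, among them Cd3d, at least 263-fold higher. Endothelial markers summed to 17.9 and 17.6 at day 14, against 6.19 and 3.34 in the untreated tumours. Of 9 endothelial markers 3 passed as higher, where 24.3% of all genes did. Vwf stood at 3.03 and 3.09, against −0.65 and −1.98, while Pecam1 overlapped (−3.74 and −3.70, against −3.65 and −4.31). Salivary acinar markers (9 genes) summed to 56.6 and 99.7 in untreated tumour, 72.1 at day 3, 4769 and 4753 at day 14, 4490 and 9183 in parotid and 1335 in submandibular gland. They rose for 9 of 9 genes at day 14 against untreated tumour, with a median log2 difference of 10.9, and like Foxo1 and Sesn1 they were low in both untreated tumours and high at day 14 and in parotid. Proliferation markers had mean log2 levels of −2.13 and −2.08 at day 14, against 2.97 and 2.95 in the untreated tumours. Of 8 macrophage markers, 2 were higher and 4 lower at day 14 than in untreated tumour, with a median log2 difference of −0.82. Of 6 fibroblast markers, 3 were higher and 1 lower. The part of any of these cell types in the day 14 differences was not tested.

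**Figure D4:**
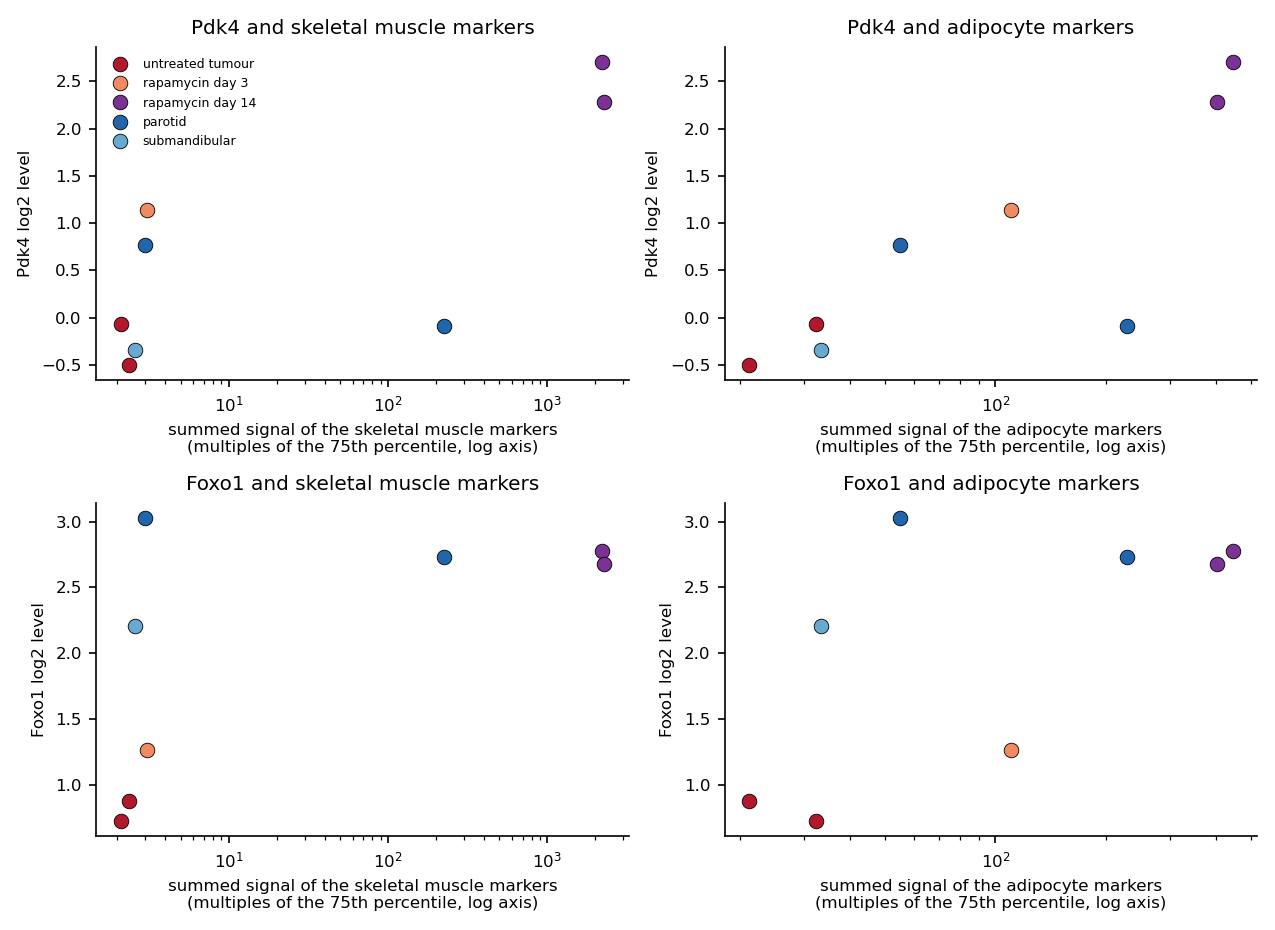
Level of Pdk4 (top) and Foxo1 (bottom) on each array against the summed signal of the skeletal muscle (left) and adipocyte (right) markers, in multiples of the 75th percentile on a log axis, coloured by group. Pdk4 is highest on the 2 day 14 arrays, which hold the most muscle and fat signal, while Foxo1 is at 3.03 on a parotid array whose muscle sum is 3.00. That parotid array has the highest T cell sum, 98.6, which is not drawn.

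Among FOXO targets outside the members, Trim63, an atrophy ligase found almost only in striated muscle, was well above background on both day 14 arrays (0.19 and 1.16) and on none of the other 6. It was at least 292-fold higher at day 14 than in untreated tumour (adjusted p = 0.00118) and at least 43.3-fold higher than in parotid (adjusted p = 0.0216). Parotid replicate 2, with a muscle sum of 226 against 2206 and 2283 at day 14, had it at −3.43, not well above background. The remaining arrays outside day 14 ran from −7.67 to −5.20.

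Around the members, 3 further lists were read. Their counts stand beside the shares over all genes. In untreated tumour against parotid 18.7% of all genes were higher and 20.4% lower, and at day 14 against untreated tumour 24.3% were higher and 23.4% lower. Among 16 relatives of the members, 2 were higher and 6 lower in untreated tumour against parotid, and 7 higher and 2 lower at day 14 against untreated tumour. Against parotid the arrestin-domain genes Arrdc2 (−2.95 ± 0.42, adjusted p = 0.00315) and Arrdc4 (−1.84 ± 0.24), a close relation of Txnip, and the stress gene Gadd45b (−1.37 ± 0.41) were lower, while Pdk3 (1.32 ± 0.27) and Gadd45g (1.28 ± 0.38) were higher. At day 14 Arrdc2 (2.24 ± 0.42, adjusted p = 0.00699), Gadd45b (1.65 ± 0.41) and the IGF receptor Igf1r (1.53 ± 0.33) were higher than in untreated tumour, and Pdk3 (−1.47 ± 0.27) and Gadd45g (−1.23 ± 0.38) lower.

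Of 34 upstream regulators, 8 were higher and 4 lower in untreated tumour against parotid, where 39.1% of all genes passed. The stress kinase Mapk9 (−1.25 ± 0.29) and the PI3K subunit Pik3ca (−1.16 ± 0.22) were lower. The 14-3-3 genes Ywhaz (2.82 ± 0.31, adjusted p = 0.00123) and Ywhah (1.93 ± 0.21) were higher, and Skp2, whose ubiquitin ligase targets FOXO1, was at least 9.73-fold higher. At day 14 against untreated tumour, where 47.7% of all genes passed, 7 were higher and 8 lower. Sgk1, a kinase that phosphorylates FOXO as AKT does, was higher (3.50 ± 0.19, adjusted p = 0.000179), with the PI3K subunit Pik3r1 (1.57 ± 0.33). Lower were Skp2 (−4.42 ± 0.57, well above background on 1 of 2 day 14 arrays), the 14-3-3 sigma gene Sfn (−2.78 ± 0.19, adjusted p = 0.000302) and the 14-3-3 theta gene Ywhaq (−2.32 ± 0.19).

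Of 26 other FOXO targets, 4 were higher and 10 lower in untreated tumour against parotid, and 11 higher and 4 lower at day 14 against untreated tumour. Over all genes 39.1% and 47.7% passed. The cell cycle inhibitor Cdkn1a, a textbook target, ran against the direction of Foxo1, at 3.84 and 3.28 in untreated tumour, 3.03 at day 3, −1.48 and −1.42 at day 14 and −1.61 and −1.60 in parotid. Its differences were 5.16 ± 0.27 (adjusted p = 0.000148) in untreated tumour against parotid and −5.01 ± 0.27 (adjusted p = 0.000179) at day 14 against untreated tumour. The mitophagy gene Bnip3 (2.00 ± 0.21 and −1.80 ± 0.21) and the cell death gene Bcl2l11 (1.11 ± 0.30 and −0.96 ± 0.30) did likewise. Lower against parotid were the death ligand Fasl (−4.02 ± 0.79, with 1 of 2 arrays above background in each group) and the cyclin Ccnd2 (−3.68 ± 0.58). At day 14 Fasl (3.71 ± 0.79, 1 of 2 untreated tumours above background) was higher than in untreated tumour, beside Trim63. Fasl is a lymphocyte gene, and the B and T cell sums above were also higher at day 14 than in untreated tumour. Over all arrays they did not run together, as Fasl was highest in submandibular gland (−2.23), with a T cell sum of 9.50. The part of lymphocytes in the Fasl differences was not tested.

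**Figure D5:**
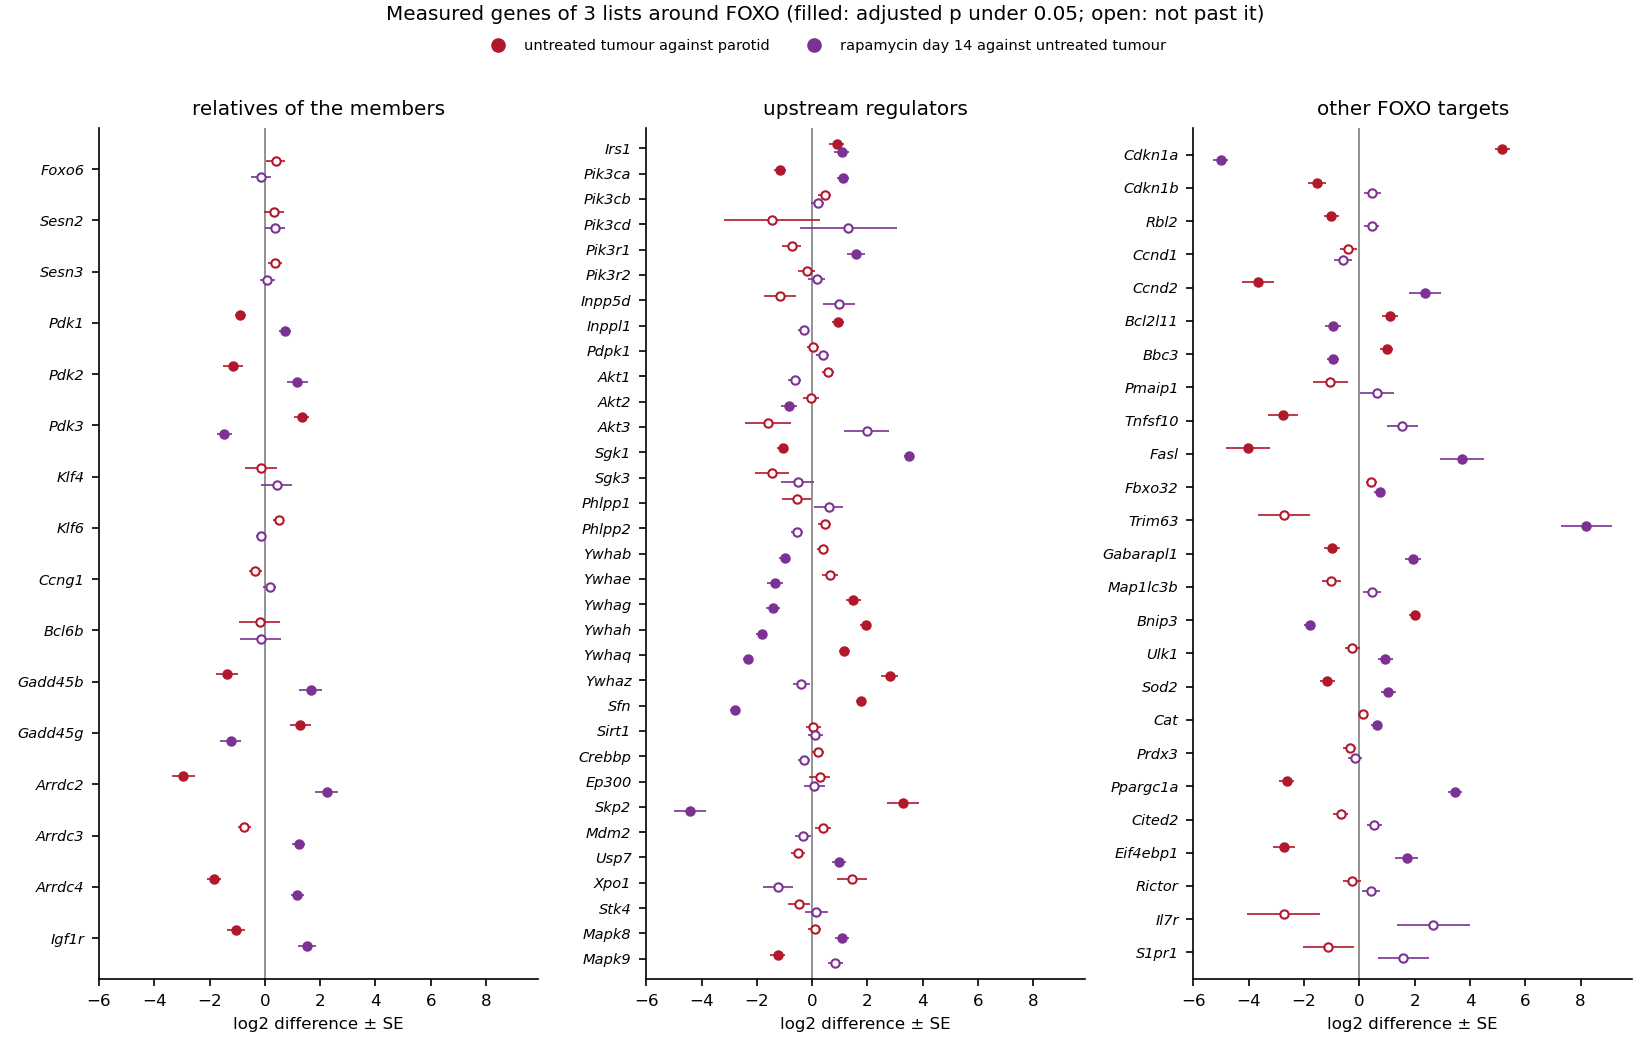
Log2 difference ± SE of measured genes in the 3 further lists, relatives of the members, upstream regulators and other FOXO targets. Red points are untreated tumour against parotid, purple points are day 14 against untreated tumour, and filled points passed at an adjusted p under 0.05. In the right panel Cdkn1a has its red point at 5.16 and its purple point at −5.01, and both sets of points share the untreated tumour arrays.

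Across the 8 arrays Foxo1 and Sesn1 had a Pearson r of 0.971, and Foxo1 and Klf2 0.915, while Ccng2 and Bcl6 had −0.824. These are descriptions over arrays that share groups and scaling. By the rule used, the genes most like Foxo1 were Tmem39a (r = 0.994) and Ppm1k (0.992), and those most like Sesn1 were C1qtnf4 (0.990) and Rps27 (0.988). Pdk4 was most like Scarf1 (0.983) and Mtx3 (0.981), and Klf2 like Rplp1 (0.991) and Cox17 (0.986). Of the rest, Bcl6 was nearest Gstm2 (0.991) and Os9 (0.990), Txnip nearest Zfp119b (0.986), Gadd45a nearest Hipk2 (0.979) and Irs1 (0.977), and Ccng2 nearest Spice1 (0.984) and Ap5z1 (0.981). The likeness was over 8 arrays among 9896 genes.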

How the data were processed

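The 8 one-colour arrays were read by Feature Extraction 10.7.3.1, per the file headers, and the deposited intensities are background-subtracted and detrended but not scaled between arrays. The deposited log2 table was an alternative only. Its scale was matched to the arrays (r of 0.971 to 0.980 with its own array), its centring and normalization are not given in the sources used here, and column medians were 5.52 to 5.57. Non-uniform and outlier spots were left out, and a probe needed to be well above background on all arrays of 1 group or more. The brightest kept probe stood for a gene. limma 3.58.1 (R 4.3.3) was applied to log2 intensities scaled to the 75th percentile of each array, with 5 group means, an intensity trend and 3 residual degrees of freedom. Adjusted p-values are two-sided Benjamini-Hochberg values over 16375 genes, with a threshold of 0.05. The fit was tested on simulated data. The members and lists were chosen with earlier results of these data known. All members were named, and from each other list and comparison at most the 3 largest rises and falls past the threshold, and some of the genes so chosen are not reported here. Submandibular against parotid and the fit of single probes were added after the data were seen. For a gene not well above background on any array of 1 group, the fold is a bound against the higher of its own signal and the lowest signal well above background on each array. Alternatives were quantile normalization, normexp (offset 50), the deposited table, other filters on dim probes, the mean of probes, no trend, slide as a block, slide 1 alone, only the arrays compared, at least 2-fold and leaving out each replicate. The number of arrays limits the precision.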

Additional observations from a re-analysis of the deposited data

Results flagged for a closer look

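Foxo1 and Sesn1 were flagged because the effects at the 2 treatment times differ by a test of the difference itself, on the brighter probe of each. The dimmer Sesn1 probe differed by 0.78 ± 0.37 between day 14 and day 3 and did not pass. Foxo1 was 1.45 higher (log2) and Sesn1 2.01 higher at day 14 than at day 3, on 2 arrays against 1 (adjusted p = 0.0121 and 0.00494, limma).

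Gadd45a was flagged because untreated tumour differed in opposite directions from the 2 normal glands, and the glands differ by 2.66 in submandibular gland against parotid (adjusted p = 0.0202, 1 array against 2).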

How the results depend on the processing

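No paired analysis was possible because the labels number both samples of a group only for the untreated tumours, so the groups share no pair of replicate numbers. Foxo1 and Sesn1 passed under all 18 alternatives in untreated tumour against parotid and at day 14 against untreated tumour, and Pdk4 under all 18 in the day 14 comparison. Klf2 passed under 11 and 14 of 18, Bcl6 under 13 and 12, and Gadd45a under 16 and 15. Of the values of single members in the 6 planned comparisons, 738 kept their direction and side of the threshold, 52 lost the call, 38 gained one and 12 changed sign.

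For untreated tumour against submandibular gland, 5 members were called, with 8 without a filter on dim probes (10 genes tested) and 3 each with no intensity trend and with slide as a fixed block. For day 14 against day 3 the count of 2 became 6 with only the arrays compared. For submandibular gland against parotid the count of 1 became 2 with quantile normalization and with the deposited values, and 0 with slide as a fixed block and with only the arrays compared. With 1 replicate left out, the counts ran over 2 to 7 for untreated tumour against parotid, 2 to 7 against submandibular gland, 0 to 0 for day 3, 3 to 7 for day 14 against untreated tumour, 0 to 6 against day 3, 0 to 5 against parotid, and 0 to 3 for submandibular gland against parotid. The shares over all genes in these same settings are not given here, so these counts cannot be read as particular to the members. The cause was not tested.

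All values that changed sign were uncalled. With slide as a fixed block they were Pdk4 in untreated tumour against submandibular gland (−0.58), Bcl6 at day 3 against untreated tumour (−0.17), Ccng2 at day 14 against untreated tumour (0.21) and, for submandibular gland against parotid, Bcl6 (−0.28) and Ccng2 (0.24). With slide as a random block they were that Pdk4 value (−0.013) and Bcl6 (−0.019) between the glands. Klf2 at day 14 against parotid was −0.025 with normexp, and Bcl6 there was 0.23 on slide 1 alone. With 1 replicate left out, Pdk4 in untreated tumour against submandibular gland ran over −0.15 to 0.28, Klf2 at day 3 over −0.14 to 1.08 and Ccng2 at day 14 against untreated tumour over −0.32 to 3.16e-05. At day 14 against parotid Bcl6 ran over −0.89 to 0.26 and Klf2 over −0.34 to 0.36, and between the glands Bcl6 over −0.56 to 0.59 and Ccng2 over −0.73 to 0.47. Normexp moved the median of all genes by 0.24 at day 14 against day 3, −0.16 at day 3, 0.14 at day 14 and −0.13 in untreated tumour against parotid, the deposited values by −0.14 at day 14 and 0.10 in untreated tumour against parotid, and quantile normalization by 0.10, 0.11 and −0.10 in untreated tumour against parotid, against submandibular gland and at day 14.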
